A study of Bos indicus x Bos taurus with 17 samples.

Results

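The apolipoproteins are the proteins that package lipid for transport in blood, and 10 of their genes were described in fetal cattle: APOA1, APOA2, APOA4, APOA5, APOB, APOC3, APOD, APOE, APOH and APOM. Each was found by its exact symbol in the gene count tables of liver and skeletal muscle, where it had 1 row among 21048. The liver assembles most circulating lipoproteins. A large protein, apolipoprotein B, forms the scaffold of very low density lipoprotein, and APOA1 and APOA2 are the main proteins of high density lipoprotein. Smaller exchangeable apolipoproteins ride on these particles and set how fast their triglyceride is hydrolysed and how receptors take them up.

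The data were RNA-seq read counts from 6 fetuses of about gestation day 105, all crosses of Bos indicus and Bos taurus recorded as healthy. The ART-Normal group held 4 fetuses (replicates 1 to 4) conceived by assisted reproductive technology, which in the study's methods means in vitro production with a weight near that of controls. The Control-AI group held 2 fetuses (replicates 2 and 4) conceived by artificial insemination. Every fetus gave a liver and a muscle library, so 12 libraries were compared, and the fetuses that the study's methods list do not include ART-Normal 4. Both tissues were bulk RNA, in which fewer cells of a type and less RNA per cell cannot be told apart.

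Total counts per library ran from 12433300 to 43339598. Levels are given as CPM, counts scaled to the library size, after TMM normalization over the 12 libraries, a scaling that sets libraries on a common footing from the bulk of their genes. The 9 hepatocyte markers summed to 40320 to 364100 CPM in liver and to 5.61 to 390 CPM in muscle, and the 8 skeletal muscle markers to 14510 to 23320 CPM in muscle and 5.28 to 26.2 CPM in liver. Control-AI 2 stood apart in both tissues. It held the highest hepatocyte sum in liver, against at most 71880 CPM elsewhere, and the highest in muscle, against at most 49.4 CPM elsewhere, as well as the highest muscle marker sum in liver, against at most 6.93 CPM elsewhere. Its liver library had a TMM factor of 0.755, while the other liver libraries had 0.961 to 1.04. Values in which this fetus weighed most are therefore given with and without it.

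APOB lies on chromosome 11 from 77885988 to 77927967 on the plus strand of ARS-UCD1.2, the build of all positions here. APOA2 is on chromosome 3 (8282869 to 8284124, plus strand), APOD on chromosome 1 (72062118 to 72076495, plus strand) and APOE on chromosome 18 (52635556 to 52640577, plus strand). APOH is on chromosome 19 (62611657 to 62624442, minus strand) and APOM on chromosome 23 (27641577 to 27646567, minus strand). The remaining members form a cluster on chromosome 15. Its minus strand carries APOA5 (27443933 to 27446597), APOA4 (27477953 to 27490990) and APOA1 (27503555 to 27505442), and its plus strand carries APOC3 (27486034 to 27488624). These spans cover exons and introns together, because reads were counted over whole genes. All 2591 bp of APOC3 lie inside the APOA4 span on the opposite strand. The counting of strand is not given in the sources used here, so counts of APOA4 and APOC3, and of APOM with BAG6, which share 833 bp on opposite strands, are uncertain. The other 7 members overlap no listed gene.

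Liver and muscle were compared to ask where each apolipoprotein gene was used. In liver the 10 genes together took 1.11% to 1.37% of all counts, and in muscle 0.00586% to 0.00824%. All but APOD, 9 of 10, were higher in liver and APOD was lower, by edgeR's quasi-likelihood test over all 12 libraries with conception group as a covariate. The filter asked for 5 CPM in every library of a group. Of the 9, 6 (APOA2, APOA4, APOA5, APOB, APOC3 and APOH) met it in liver alone, and APOD met it in muscle alone. In each case this was the tissue where the gene was higher, so that the filter itself favoured a difference. Of the 12923 genes tested, 40.6% were higher in liver and 40.7% were lower. The median log2 fold change of liver over muscle was 10.02 among the members and 0.01 over all genes tested. For every member the libraries of the tissues did not overlap, but the share of all genes for which this held was not computed. The lack of overlap therefore does not set the members apart from other genes.

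**Figure D1:**
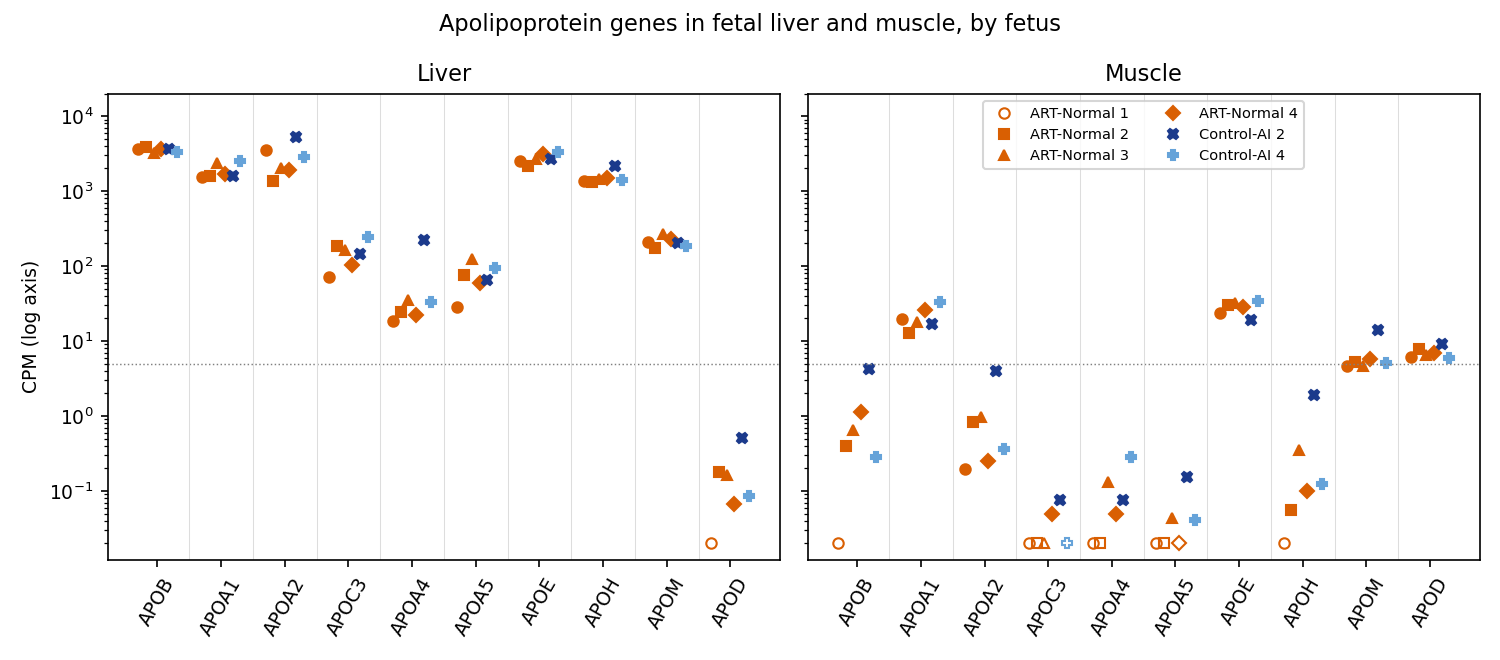
CPM of each apolipoprotein gene (log axis) in liver (left) and muscle (right), 1 point per fetus; open symbols at the bottom mark a count of 0, and the dotted line marks the 5 CPM used as a filter. Except for APOD every gene sits higher in liver, and Control-AI 2 lies above the other fetuses for APOA4 and APOA2 in liver and for APOB, APOA2, APOH and APOM in muscle.

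APOB, the scaffold of very low density lipoprotein, had 3665, 3866, 3169 and 3634 CPM in the ART-Normal livers, against 3650 and 3323 CPM in the control livers, with fetuses in the order of their replicate numbers here and below. It was the steadiest member in liver, with a highest level only 1.22 times the lowest. In muscle the ART-Normal fetuses had 0, 0.39, 0.66 and 1.14 CPM, against 4.24 and 0.29 CPM in the controls. The 6 muscle libraries held 108 APOB counts in all and the 6 liver libraries 564403, and 56 of the 108 muscle counts came from Control-AI 2. Liver exceeded muscle by a log2 fold change of 11.93 (SE 0.75, adjusted p = 2.39e-09 from edgeR), which was 12.83 without Control-AI 2.

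APOA1, the main protein of high density lipoprotein, had 1550, 1578, 2395 and 1681 CPM in the ART-Normal livers, and control livers had 1579 and 2499 CPM. ART-Normal 3 and Control-AI 4 were the high fetuses. In muscle APOA1 remained readily measured, at 19.95, 12.6, 18.2 and 25.8 CPM in ART-Normal against 17.0 and 33.0 CPM in the controls. Its liver over muscle log2 fold change of 6.48 (SE 0.27, adjusted p = 2.58e-11 from edgeR) was smaller than that of APOB. APOA2, the other abundant high density lipoprotein protein, had 3574, 1357, 2010 and 1903 CPM in the ART-Normal livers, against 5193 and 2880 CPM in control livers. In muscle its level was 0.20 to 0.96 CPM among ART-Normal fetuses, against 4.02 and 0.37 CPM in the controls, and the log2 fold change between the tissues was 11.57 (SE 0.64, adjusted p = 5.57e-10 from edgeR) with Control-AI 2 and 12.13 without it.

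The liver levels of APOA2 followed the library totals in exact reverse order, from Control-AI 2 with 18454088 counts to ART-Normal 2 with 43339598. Raw APOA2 counts stayed between 49314 and 76939, a 1.56-fold range, while the totals ranged 2.35-fold. No other member showed this order, which was noticed after the values were seen. Of 11304 tested liver genes, 17 (0.15%) showed it, and 13 showed the exact forward order, a number close to it. APOA2 has the shortest span of the members, 1256 bp. The part of sequencing depth in its level was not tested.

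**Figure D2:**
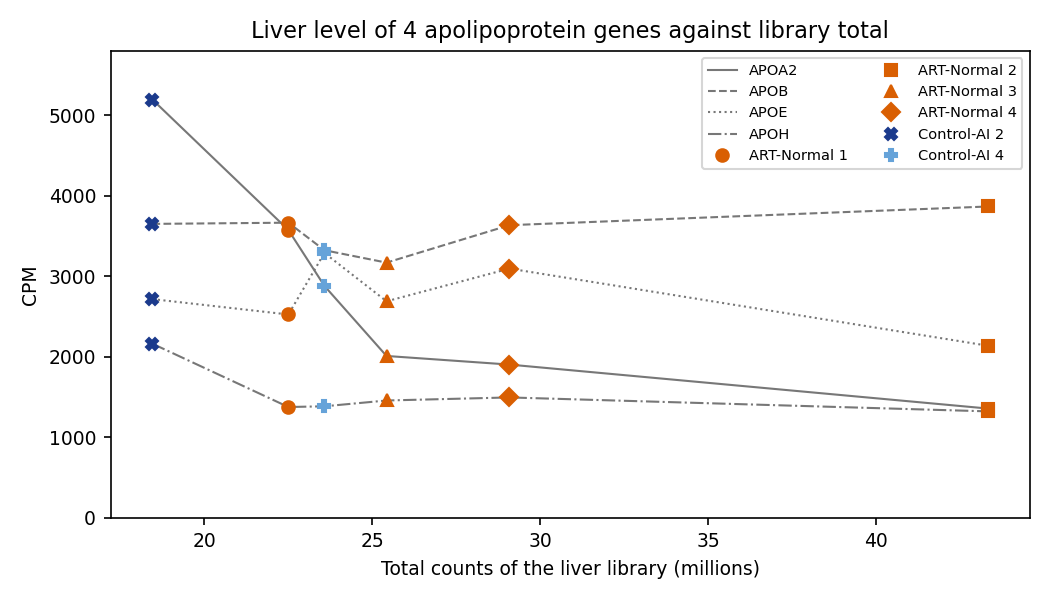
CPM of APOA2, APOB, APOE and APOH in liver (vertical axis, from 0) against the total counts of the library (horizontal axis); each point is a fetus and lines join the fetuses of 1 gene. APOA2 goes from 5193 to 1357 CPM as the total grows from the smallest to the largest library, and APOB stays between 3169 and 3866 CPM.

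The other members of the chromosome 15 cluster include a pair with known roles in triglyceride turnover. APOC3, an inhibitor of triglyceride clearance, had 71.5, 188, 162 and 104 CPM in the ART-Normal livers and 146 and 247 CPM in the control livers. APOA5, which promotes triglyceride hydrolysis, had 28.4, 74.8, 123 and 59.9 CPM, and 65.4 and 95.4 CPM in the controls. ART-Normal 1 had the lowest liver level of all 4 genes of the cluster, although its APOA1 level was close to those of ART-Normal 2 and Control-AI 2. APOA4, best known as an apolipoprotein of the intestine, had 18.3, 24.6, 34.8 and 22.5 CPM in the ART-Normal livers, while the control livers had 220 and 32.9 CPM. The liver library of Control-AI 2 thus stood far above the rest for APOA4, while APOC3 and APOA5 in that library lay within the range of the other livers.

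In muscle these 3 genes were at the limit of detection. The 6 libraries held 12 counts of APOA4, 4 of APOA5 and 2 of APOC3 in all, and a count of 0 in a library allows up to 0.12 to 0.22 CPM at these depths. Ratios of the pooled counts, scaled to effective library size, put liver over muscle at 9696 for APOC3 (exact 95% interval 2684 to 80060), 2329 for APOA5 (909 to 8549) and 446 for APOA4 (255 to 864). These intervals cover counting error only. Control-AI 2 gave a large share of the APOA4 counts in liver, and without it the pooled ratio of APOA4 was 264 (147 to 529), that of APOC3 17430 (3128 to 688500) and that of APOA5 4212 (1166 to 34780). With or without that fetus, APOC3 and APOA5 exceeded the ratio of APOA1, 85.2 (82.0 to 88.5) over all fetuses, even at their lower bounds, while they share a cluster with it.

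APOE, the ligand by which receptors clear remnant lipoproteins, had 2525, 2137, 2689 and 3095 CPM in the ART-Normal livers and 2716 and 3289 CPM in the control livers. Its muscle levels were 23.7, 30.3, 31.7 and 28.7 CPM, and 18.8 and 34.1 CPM in the controls. Control-AI 2 was the lowest muscle library for APOE. The log2 fold change of liver over muscle was 6.61 (SE 0.21, adjusted p = 2.23e-12 from edgeR). APOE is also made by macrophages, and the 10 macrophage markers summed to 667 to 874 CPM in liver and 112 to 153 CPM in muscle. Their part in the APOE level was not tested.

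APOH, a plasma protein that binds phospholipid, had 1376, 1322, 1457 and 1495 CPM in the ART-Normal livers, while the control livers had 2162 and 1385 CPM. Control-AI 2 was the high fetus, and the rest lay between 1322 and 1495 CPM. In muscle its level was 0 to 0.35 CPM in ART-Normal, with 1.89 and 0.12 CPM in the controls, with a log2 fold change between the tissues of 12.21 (SE 0.59, adjusted p = 1.36e-10 from edgeR), or 13.36 without Control-AI 2, which held 25 of the 39 muscle counts. APOM, which carries sphingosine 1-phosphate on high density lipoprotein, had 208, 174, 269 and 233 CPM in the ART-Normal livers and 204 and 187 CPM in the control livers. Muscle levels were 4.58, 5.23, 4.68 and 5.77 CPM in ART-Normal, against 14.0 and 5.06 CPM in the controls. Its log2 fold change of 5.09 (SE 0.26, adjusted p = 2.86e-10 from edgeR) was the smallest of the 9 genes higher in liver, and without Control-AI 2 it was 5.38.

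APOD, a lipocalin made in many tissues outside the liver, was the single member with the reverse pattern. Its muscle levels were 6.21, 7.75, 6.52 and 7.01 CPM in ART-Normal, with 9.17 and 5.96 CPM in the controls. In liver the ART-Normal fetuses had 0 to 0.18 CPM, with 0.51 and 0.09 CPM in the controls, from 23 counts in 6 libraries against 851 in muscle. Liver was lower by a log2 fold change of -5.52 (SE 0.40, adjusted p = 1.18e-08 from edgeR), and the pooled counts gave a muscle over liver ratio of 47.1 (exact 95% interval 31.2 to 74.7). Without Control-AI 2 the log2 fold change was -5.90 and the muscle over liver ratio 59.3 (36.3 to 104). Marker sums of cells that can express APOD differed between the tissues too. The 6 connective tissue markers summed to 20660 to 26960 CPM there and 558 to 1179 CPM in liver, and the 4 Schwann cell markers to 47.6 to 137 CPM there and 5.06 to 11.1 CPM in liver. Their part in the APOD level was not tested.

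In muscle the members fell into separate levels when each was set against the liver of the same fetus. APOA1 reached 0.76% to 1.53% of its liver level, APOE 0.69% to 1.42% and APOM 1.74% to 6.88%. The highest APOM value was that of Control-AI 2, against 1.74% to 3.01% in the other fetuses. APOM counts are uncertain, as the gene overlaps BAG6 on the opposite strand. APOA2 reached 0.0056% to 0.077%, APOB 0% to 0.12% and APOH 0% to 0.088%, each with its highest value in Control-AI 2. The 9 hepatocyte markers had a median of 0.11% in Control-AI 2 and medians of 0.0059% to 0.049% in the other fetuses, and FGG in ART-Normal 1 was the only one at 0 in a muscle library. In Control-AI 2 the hepatocyte markers ran from 0.0997% to 0.16%. APOB in that fetus, at 0.12%, lay among them, while APOA2, at 0.077%, and APOH, at 0.088%, lay below them all. In all 6 fetuses APOA1, APOE and APOM lay above every hepatocyte marker, whose highest value was 0.303% for AHSG in ART-Normal 3. The reverse measure, the liver level of 8 skeletal muscle markers as a share of muscle, had a median of 0.10% in Control-AI 2 and at most 0.0019% elsewhere. Whether RNA of one tissue was present in the library of the other was not tested.

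**Figure D3:**
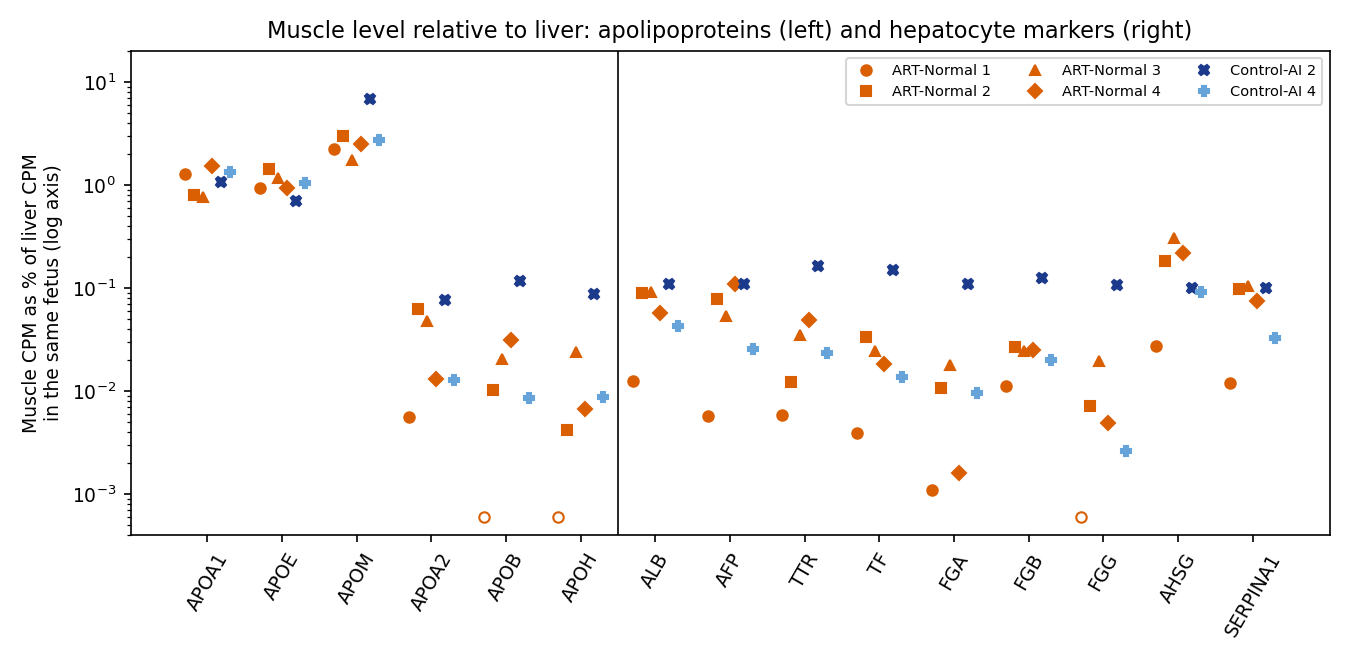
Muscle CPM as a percentage of liver CPM in the same fetus (log axis), for 6 apolipoprotein genes (left of the line) and 9 hepatocyte markers (right), 1 point per fetus; open symbols mark a muscle count of 0. APOA1, APOE and APOM lie between 0.69% and 6.88%, above all markers, and APOA2, APOB and APOH lie in the range of the markers taken over all fetuses, though not within each fetus.

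The other genes of lipoprotein metabolism were mostly higher in liver, by the same edgeR test. Of 54 tested, 39 were higher in liver and 8 lower, where 40.6% and 40.7% of all genes were. Of 7 other apolipoproteins and lipoprotein proteins tested, 4 were higher in liver and 2 lower. APOC2, the activator of lipoprotein lipase, and APOC4, its neighbour, had log2 fold changes of 12.10 and 10.60. APOOL, a mitochondrial protein, had -0.65. APOL3, an intracellular apolipoprotein L that is listed on 2 rows, had -6.56 on the row that was tested. The other, untested APOL3 row was higher in liver, at 2.33 to 4.05 CPM, than in muscle, at 0.33 to 0.60 CPM. In lipoprotein assembly and secretion 8 of 9 were higher in liver and 0 lower, led by A1CF, a cofactor of APOB mRNA editing, at 11.35 and TM6SF2, which acts in lipidation of very low density lipoprotein, at 7.89. APOBEC1, another APOB editing gene on this list, had 0 CPM in every liver and muscle library and was not tested. Whether APOB mRNA was edited was not tested. Among remodelling enzymes and their inhibitors 7 of 9 were higher and 2 lower. Hepatic lipase LIPC had 8.67, whereas GPIHBP1, which anchors lipoprotein lipase to capillaries, had -2.93 and LMF1, a lipase maturation factor, had -0.75. APOC2, APOC4, A1CF, TM6SF2 and LIPC met the filter in liver alone, and GPIHBP1 and the tested APOL3 row in muscle alone, the tissue where each was higher.

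Of 10 receptors tested, 4 were higher in liver and 3 lower, shares near the 40.6% and 40.7% of all genes, with a median log2 fold change of 0.05. LRP2, a large endocytic receptor, and LSR, which takes up lipolysed lipoprotein, had 6.21 and 4.38, and VLDLR and SORT1 had -1.74 and -1.05. Of 4 cholesterol efflux transporters 3 were higher in liver, with ABCG8 at 9.01 and ABCG1 at 3.49, and 0 lower. Of 15 regulators of apolipoprotein genes 13 were higher in liver, with CREB3L3 at 11.30 and FOXA2 at 10.58, and 1, FOXO1, was lower, at -0.65. LRP2, LSR, ABCG8, ABCG1, CREB3L3 and FOXA2 met the filter in liver alone, the tissue where they were higher.

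The comparison of conception groups asked whether assisted reproduction without overgrowth went with other apolipoprotein levels. In liver 9 members reached the 5 CPM in every library of a group that the filter asked for, and 0 of 9 had an adjusted p of 0.05 or lower, where 0 of all 11304 genes (0.0%) did by edgeR's quasi-likelihood test. At an unadjusted p under 0.05 there were 2 of 9, APOA4 and APOA2, and 8.39% of all genes. The CPM of the groups overlapped for all 9 members, while 18.5% of all genes did not overlap. The median log2 fold change between the conception groups, positive where ART-Normal is higher, was -0.21 among the 9 and 0.01 over all genes tested. APOD, with at most 8 counts in a liver library, was not tested.

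The largest difference in liver was that of APOA4, at 25.0 ± 7.02 CPM (SD, n = 4) in ART-Normal, against 220 and 32.9 CPM in the controls. Its log2 fold change was -2.35 (SE 0.54, adjusted p = 0.402 from edgeR). It rested on Control-AI 2, as it was -0.38 without that fetus and -3.15 without Control-AI 4 (adjusted p = 2e-05 from edgeR), where Control-AI 2 was the lone control and was assumed to vary like the other group. The likelihood ratio test, which the study names for its own comparisons, called APOA4 over all 6 fetuses (adjusted p = 0.00404 from edgeR), and DESeq2 did not (adjusted p = 0.204). APOA4 counts were 1.51 times those of APOC3 in the liver of Control-AI 2 and 0.131 to 0.256 times in the other livers.

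Genes that lie opposite a more abundant gene tended to have high levels in the liver library of Control-AI 2. Against the mean of the other 5 livers, its log2 ratio had a median of 2.099 among 309 liver genes whose opposite gene was 16 times as abundant or more, 0.49 among 281 whose opposite gene was 4 to 16 times as abundant, and -0.04 among the 12234 with no opposite gene. These classes were set by the same 5 libraries that the ratio was taken to, and admitted genes with 1 CPM in Control-AI 2 alone, which favours high ratios. With classes and the 1 CPM minimum taken from the 4 ART-Normal livers and the ratio taken to Control-AI 4, the medians were 1.35 among 143 genes, 0.45 among 261 and -0.04 among 11735. APOC3 was 5.80 times as abundant as APOA4 in the other 5 livers, and the log2 ratio of APOA4 was 3.02, or 2.72 to Control-AI 4. In the liver of Control-AI 2, LOC107133155, which also overlaps APOA4 on the opposite strand over 472 bp, had 182 CPM, and it ranged from 127 to 180 CPM in the other livers. LOC104974214, which overlaps APOA4 by 372 bp on the same strand, had 61.3 CPM in that library, the lowest of the 6, and 117 to 341 CPM elsewhere. The part of overlapping genes in the APOA4 level was not tested.

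**Figure D4:**
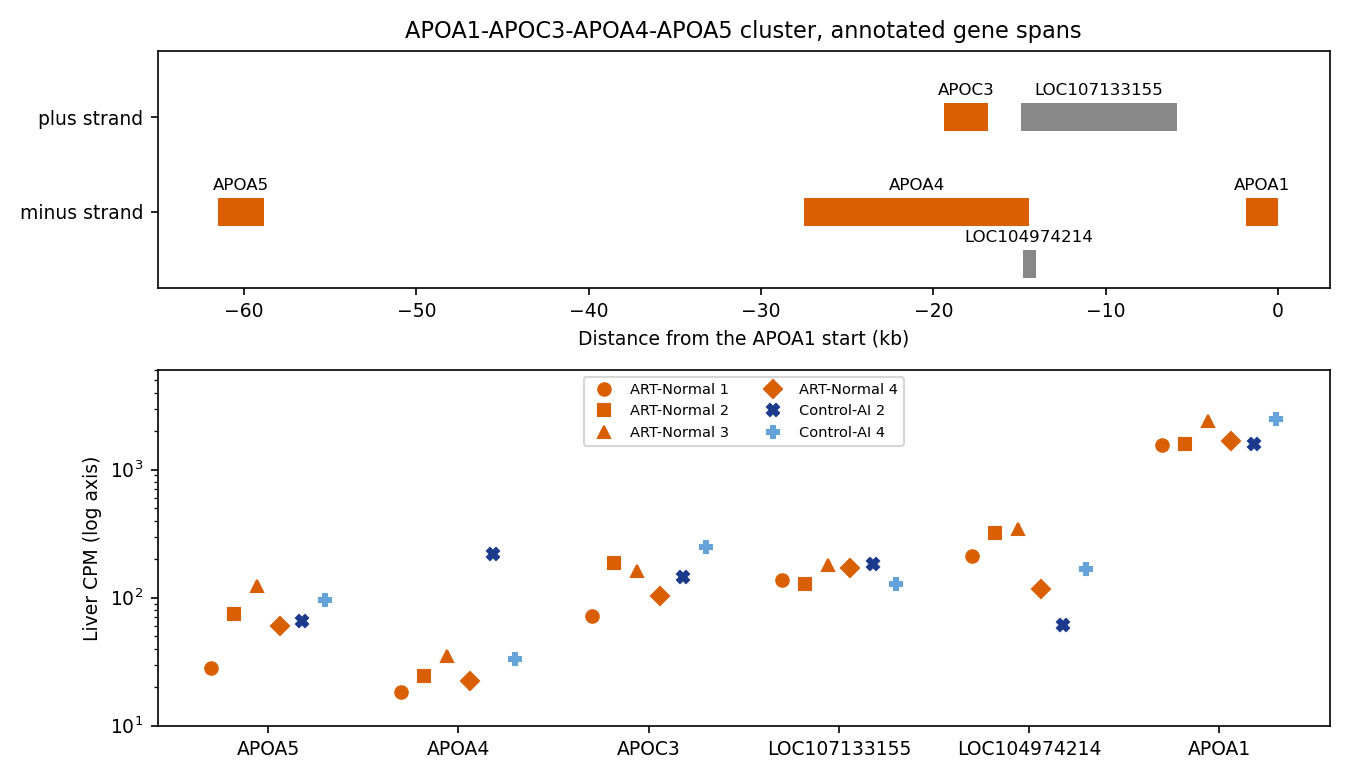
Top, annotated spans of the chromosome 15 cluster by strand, with distance in kb from the start of APOA1 on the minus strand; orange bars are apolipoprotein genes and grey bars overlapping loci. Bottom, liver CPM of the same genes (log axis), 1 point per fetus, in which APOA4 in Control-AI 2 (220 CPM) stands above the 18.3 to 34.8 CPM of the other fetuses and APOC3 and APOA5 do not.

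APOA2 had 2211 ± 953 CPM (SD, n = 4) in ART-Normal livers and 5193 and 2880 CPM in the controls, a log2 fold change of -0.88 (SE 0.37, adjusted p = 0.581 from edgeR), which became -0.37 with Control-AI 2 left out and -1.25 with Control-AI 4 left out. The level of ART-Normal 1 lay between the controls. The log2 fold change of APOC3 was -0.59 (SE 0.34) and that of APOH -0.34 (SE 0.21). APOE had -0.21 (SE 0.21), APOA1 -0.18 (SE 0.25) and APOA5 -0.18 (SE 0.43), with APOB at 0.03 (SE 0.19) and APOM at 0.17 (SE 0.18). For these 7 genes the adjusted p from edgeR ran from 0.598 to 0.963, and these values do not show that the groups were alike. Some hepatocyte markers stood apart in the same library. Of the 9, 7 were above and 2, TTR and FGG, within the range of the other livers, and 4 (AHSG, SERPINA1, ALB and AFP) were at least 2 times the next highest liver. AHSG had 149000 CPM and ALB 74800 CPM in the liver of Control-AI 2, against 3921 to 8290 CPM and 6893 to 13050 CPM in the other livers, while the 10 apolipoprotein genes summed to 15930 CPM there and 10720 to 13940 CPM elsewhere. Before TMM scaling the 10 genes held 1.195% of the counts of that library, within the 1.106% to 1.366% of the other livers. Hepatocyte genes were not alone in standing apart there. Of the red cell genes, HBG had 20390 CPM in the liver of Control-AI 2 and 1111 to 2423 CPM in the other livers. HBA went the other way, with 3.25 CPM there and 49.9 to 107 CPM elsewhere. The part of these transcripts in the apolipoprotein levels was not tested.

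In muscle 4 members passed the filter and 0 of 4 were called, against 1 of 11695 genes (0.00855%). APOM had an unadjusted p under 0.05, as did 9.19% of all genes, but it passed the filter through the controls alone, the group where it was higher, so that this says little about the members. The other 3 passed in both groups. The CPM of the groups overlapped for all 4 members, and did not overlap for 16.1% of all genes. APOM had 5.06 ± 0.55 CPM (SD, n = 4) in ART-Normal, against 14.0 and 5.06 CPM in the controls, with a log2 fold change of -0.89 (SE 0.34, adjusted p = 0.474 from edgeR). Without Control-AI 2 this was -0.01, and without Control-AI 4 it was -1.45, each with a lone control, so the difference rested on 1 fetus.

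BAG6, a chaperone gene opposite APOM, had 181 CPM in the muscle of Control-AI 2 and 118 to 150 CPM in the other muscles. APOM counts were 0.0775 of those of BAG6 in that library and 0.0311 to 0.0443 in the others. In the other 5 muscles BAG6 was 26.8 times as abundant as APOM, and the log2 ratio of APOM in Control-AI 2 was 1.38. That ratio had a median of 2.40 among the 317 muscle genes whose opposite gene was 16 times as abundant or more, and -0.01 among the 12111 with no opposite gene. With classes from the 4 ART-Normal muscles and the ratio taken to Control-AI 4, it was 1.14 among 138 genes and -0.03 among 11668. In liver, where BAG6 and APOM were close in CPM, APOM in Control-AI 2 was within the range of the other fetuses. The part of BAG6 in the muscle level was not tested.

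The remaining muscle values were -0.39 for APOA1 (SE 0.29), -0.12 for APOD (SE 0.24) and 0.11 for APOE (SE 0.23), with adjusted p of 0.741 to 0.917 from edgeR. The direction of each depended on a control, as APOA1 had -0.79 when Control-AI 2 was left out and 0.19 when Control-AI 4 was, APOD was 0.20 and -0.40, and APOE was -0.26 and 0.62. APOA2, APOB and APOH, at 4.24 CPM or lower in every muscle library, and APOA4, APOA5 and APOC3 were not tested there.

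**Figure D5:**
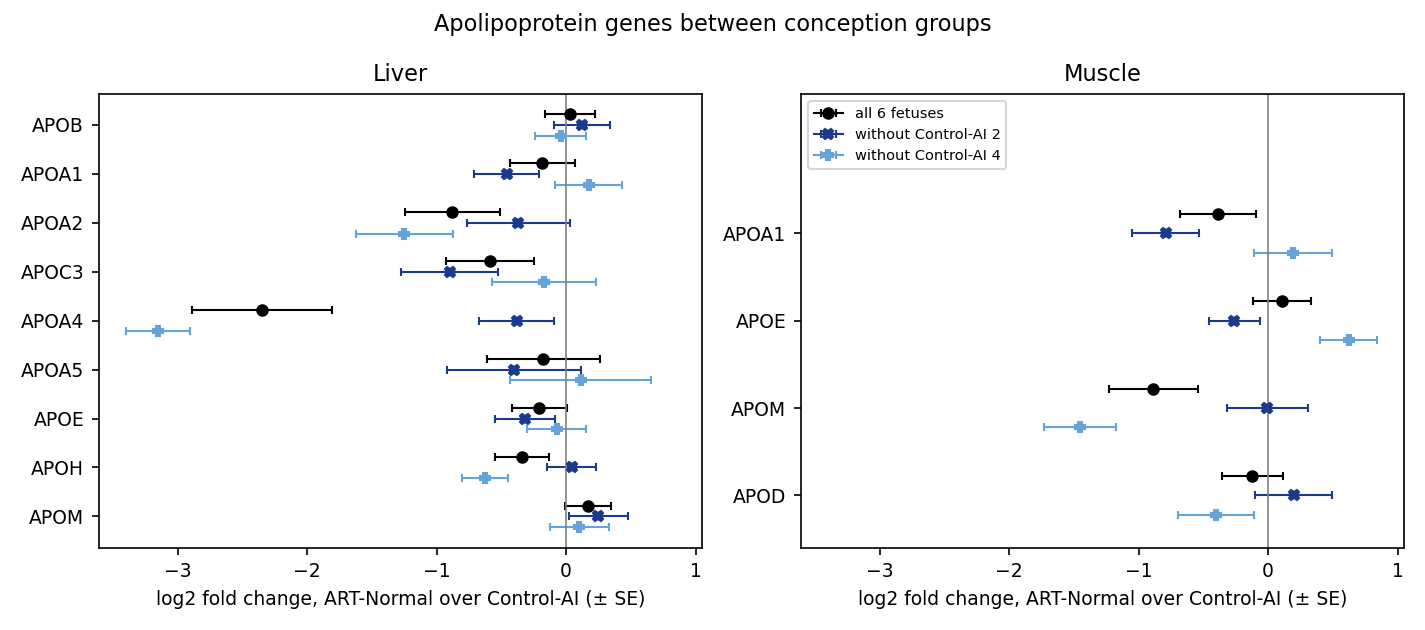
Log2 fold change between conception groups (positive where ART-Normal is higher) with its standard error (bars) from edgeR, for the members tested in liver (left) and muscle (right), with all 6 fetuses (black), without Control-AI 2 (dark blue) and without Control-AI 4 (light blue). APOA4 in liver lies at -3.15 or -0.38 and APOM in muscle at -1.45 or -0.01, depending on the control that is left out.

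Whether the difference between conception groups was itself different in liver and muscle was tested as an interaction. It was called for 0 of 10 members and for 0 of 12923 genes (0.0%), with 5.5% of all genes and 1 member, APOM, at an unadjusted p under 0.05. For the 3 members tested in both tissues, the interaction was 1.05 for APOM (SE 0.41, adjusted p = 0.851 from edgeR), 0.21 for APOA1 (SE 0.46) and -0.31 for APOE (SE 0.35). Leaving out Control-AI 2 gave 0.28 for APOM, and leaving out Control-AI 4 gave 1.58, each with the remaining fetus as the lone control.

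The other lipoprotein genes gave 0 calls between conception groups in either tissue by the quasi-likelihood test of edgeR, with 5 of 51 liver genes and 3 of 34 muscle genes at an unadjusted p under 0.05, shares near the 8.39% and 9.19% of all genes. In liver LPL, lipoprotein lipase, had 65.9, 67.8, 108 and 101 CPM in ART-Normal against 31.1 and 48.3 CPM in the controls. The groups did not overlap for LPL, nor did they for 18.5% of all liver genes tested. The log2 fold change of LPL, 1.10 (SE 0.26), did not pass (adjusted p = 0.435 from edgeR). LPL passed with the likelihood ratio test (adjusted p = 0.0194 from edgeR) and with DESeq2 (adjusted p = 0.00445). The log2 fold change was 0.83 with Control-AI 2 left out and 1.44 with Control-AI 4 left out, each with a lone control. RBM47, an RNA-binding protein of the APOB editing complex, had 0.61 in liver (SE 0.20, adjusted p = 0.515 from edgeR) and 0.77 in muscle (SE 0.30, adjusted p = 0.483 from edgeR). For RBM47 in muscle, leaving out Control-AI 2 gave 0.39, and leaving out Control-AI 4 gave 1.39, again with a lone control. The lowest unadjusted p in liver belonged to APOC2 at 0.30 among the further apolipoproteins and to ABCG8 at 0.29 among the efflux transporters, and neither passed. In muscle PLTP, the phospholipid transfer protein, had 5.38, 4.10, 4.81 and 3.33 CPM in ART-Normal, below the 9.17 and 7.23 CPM of the controls, a log2 fold change of -0.88 (SE 0.25, adjusted p = 0.342 from edgeR). Of all muscle genes tested, 16.1% likewise did not overlap between the groups. CLU had -0.17 there, LRP8 -0.43, ABCA7 0.31 and RXRA 0.43, none of which passed. ABCA7 had 0.58 when Control-AI 2 was left out and 0.066 when Control-AI 4 was. PLTP in muscle reached the filter through the controls alone, and RBM47 and ABCA7 in muscle and ABCG8 in liver through ART-Normal alone, in each case the group where the gene was higher, so that the filter itself favoured a difference.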

How the data were processed

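Total RNA of fetal liver and skeletal muscle was made into poly(A)-selected, strand-specific libraries and read as 150 bp pairs, per the labels. The submitters' processing notes name FastQC 0.11.7, HISAT2 2.1.0, SAMtools, Cufflinks, featureCounts, edgeR 3.24.3 and ARS-UCD 1.2. The authors deposited raw read counts per gene over whole gene spans, without normalization. The strand setting of the counting is not given in the sources used here. Of 13 columns per tissue 6 were matched to samples by fetal identifier, and 14 columns in all were not used. Tables of the authors' own comparisons (fold changes, p-values) were not used. The labels also list 5 kidney samples, not analysed here.

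The apolipoprotein genes and the gene lists were chosen with earlier results of these data known. APOC1, APOL6 and CETP of these lists were not analysed here. Counts were TMM-normalized and tested with edgeR 4.0.16 in R 4.3.3 by the two-sided quasi-likelihood test, for genes that reached 5 CPM in every library of 1 group, with adjustment by Benjamini-Hochberg over all tested genes and a threshold of 0.05. The standard error is the log2 fold change over the square root of its F statistic. Pooled ratios have exact binomial 95% intervals, and the upper limit for a count of 0 is 3 counts. Ratios of Control-AI 2 to the other 5 libraries used CPM plus 0.5, over genes with at least 1 CPM in it or in their mean; a version with classes from ART-Normal libraries and the ratio to Control-AI 4 was added after seeing the data. The p-values between conception groups rest on 4 fetuses against 2.

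Genes named beside the 10 are, per list, the 2 largest called differences in each direction between tissues and, between conception groups, where none was called, the gene with the lowest unadjusted p, and those overlapping a member; a few genes this rule names are not reported here. AHSG, ALB, HBG and HBA were chosen after their values were seen. Alternatives were RLE scaling, library size alone, the likelihood ratio test, the DESeq2 1.42.0 Wald test, no filter, a minimum of 10 counts in each library, ART-Normal 1 to 3 only, a replicate block and leaving out each fetus. Liver and muscle of a fetus are paired by animal, with deviations from the group means correlated across genes at r of 0.04 to 0.32 in ART-Normal and 0.36 in the controls. The procedures were tested on simulated data. Python 3.11.15 with pandas 2.3.3, SciPy 1.17.1 and Matplotlib 3.10.9 made tables and plots.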

Additional observations from a re-analysis of the deposited data

Results flagged for a closer look

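APOA1 in the liver of ART-Normal 3, at 2395 CPM, lay far from the other 3 ART-Normal livers, which had 1550 to 1681 CPM; the control liver of Control-AI 4 was as high, at 2499 CPM. APOA5 in the muscle of ART-Normal 3 (0.0438 CPM) and APOC3 in the muscle of ART-Normal 4 (0.0497 CPM) stood apart from the 0 of the other ART-Normal muscles, but each was a single count. Chance marks about 1 in 20 groups in this way, and each group of 4 was examined for every gene.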

How the results depend on the processing

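The tissue differences of all 10 members kept their direction and their call under the alternatives run, the block by fetus included, except that the minimum of 10 counts in each library left only APOA1, APOE and APOM to test. Leaving out each fetus gave log2 fold changes of 8.02 to 9.79 for APOA4, 11.91 to 13.36 for APOH, 11.57 to 12.83 for APOB, 12.35 to 13.43 for APOC3, 11.16 to 12.13 for APOA2, 10.73 to 11.69 for APOA5, -5.90 to -5.32 for APOD and 4.92 to 5.38 for APOM. Without Control-AI 2 APOA4 and APOD were at the lowest of their ranges, and APOH, APOB, APOC3, APOA2, APOA5 and APOM at the highest of theirs. Between conception groups the number of called genes depended on the setting. In liver it was 0, and 6 by library size alone, 89 by the likelihood ratio test, 56 by DESeq2, 2 with ART-Normal 1 to 3 and 0 to 830 leaving out each fetus. In muscle it was 1, and 120, 106 and 0 by the likelihood ratio test, DESeq2 and ART-Normal 1 to 3, and 0 to 1327 leaving out each fetus. The interaction gave 0, and 98 and 37 by the likelihood ratio test and DESeq2, and 0 to 232. The highest count of each range is without Control-AI 4, with Control-AI 2 as the lone control. Replicate numbers 2 and 4 are different animals in the 2 conception groups (r of 0.01 and -0.12 in liver), and a replicate block on them called 6 liver and 90 muscle genes; it turned APOD in muscle to 0.0018. The block by fetus called 0 genes for the interaction and changed no call of a member.

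Leaving out 1 fetus turned the direction of uncalled members: in liver APOA1 ranged from -0.46 to 0.17, APOA5 from -0.57 to 0.11, APOB from -0.042 to 0.12 and APOH from -0.63 to 0.042, and in muscle APOA1 from -0.79 to 0.19, APOD from -0.40 to 0.20, APOE from -0.26 to 0.62 and CLU from -0.36 to 0.015. The cause was not tested. Library size alone moved the median of all liver genes to 0.21 between conception groups, and of all genes to -0.13 between tissues and 0.21 for the interaction. With the 10 most abundant genes of the tissue left out of the total, the members' mean share was 1.29% in place of 1.196% in ART-Normal liver, 1.60% in place of 1.28% in control liver and 0.0085% in place of 0.0078% in control muscle. APOA4, APOA5 and APOC3 in muscle and APOD in liver are limited by counts of 0 to 8 per library.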
